A study of Mus musculus with 12 samples.

Results

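Oxidative phosphorylation subunits encoded in the nucleus were followed in whole bone marrow of burned mice. The genes were taken by symbol from the deposited count table, as names beginning Ndufa, Ndufb, Ndufc, Ndufs or Ndufv with a number, the 4 Sdh genes, and names beginning Uqcr, Cox4 to Cox8 with a letter from a to c, or Atp5, without those ending in -ps or Rik. This gave 82 of 24415 genes, of which 37 belonged to complex I, 4 to complex II, 8 to complex III, 16 to complex IV and 17 to complex V by their names. All mice were female C57BL/6J, 8 weeks old, and the labels name no engineered allele. The 3 groups were sham injury with isotype antibody, flame burn with isotype antibody, and flame burn with anti-G-CSF antibody, which neutralises the cytokine that drives neutrophil production. Each group had 4 libraries, numbered replicates 1 to 4, 5 to 8 and 9 to 12. Antibody was first given 12 hours ahead of injury, then with the injury and every day until the marrow was taken on day 7. No sham group with anti-G-CSF was analysed here.

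Oxidative phosphorylation passes electrons from NADH and succinate through complexes I to IV of the inner mitochondrial membrane to oxygen, and complex V (ATP synthase) makes ATP from the proton gradient this builds. Most subunits are encoded in the nucleus and are needed in fixed proportions with the few that mitochondrial DNA encodes. The table held 0 genes with mitochondrial symbols, so those partners were not measured. In marrow, dividing erythroid and lymphoid precursors rely on mitochondria, which erythroid cells later discard, while mature neutrophils hold few and live mainly on glycolysis.

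Total counts ran from 18780399 to 25708084 per library. Markers of 3 marrow lineages moved in opposite directions around these genes. All 16 neutrophil markers rose after burn and fell with anti-G-CSF. All 14 erythroid markers tested and all 12 B lineage markers fell after burn and rose with anti-G-CSF. The summed neutrophil level was 44447 to 56445 CPM (counts scaled to library size) in sham, 81984 to 99074 after burn and 27912 to 36676 under anti-G-CSF. The other 6 erythroid markers are hemoglobin genes that were listed at 0 apart from 2 counts of Hba-a2 in replicate 8. Markers of heart and brain, tissues the label does not name, were present in all 12 libraries. All 13 heart markers had counts in every library, and their sum was 385 to 480 CPM in sham, 274 to 761 after burn and 657 to 1376 under anti-G-CSF. The brain sum ran 742 to 860, 636 to 1263 and 1104 to 2091 CPM in the same order, and replicates 9 and 12 were highest for both lists.

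Of the 82 genes 78 passed the low-count filter and were tested. Ndufs5 and Cox8c had 0 counts in all 12 libraries, which at 3 counts per library allows up to 0.154 CPM, a limit that covers counting error only. Cox7b2 had 4 counts in replicate 11 and none elsewhere, and Ndufa4l2 had at most 15. Cox7c was tested at 24 to 63 counts per library, near 2.05 ± 0.609 CPM in sham. The sources used here do not say how near-identical gene copies were counted, which leaves the values of Ndufs5 and Cox7c uncertain.

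Per kilobase of transcript, the median level in sham was 72.4 CPM for the 35 complex I genes tested, 79.9 for complex II, 122 for complex III, 165 for the 14 complex IV genes and 176 for complex V. Atp5b, the catalytic beta subunit of ATP synthase, was highest at 449 CPM per kilobase. Cox7c was lowest at 3.80, and Atp5s was lowest in complex V at 5.89.

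Summed over all 82 genes, the level did not separate the groups. It was 9196, 8548, 7630 and 7804 CPM in the sham libraries, 8670, 8620, 7868 and 7916 after burn and 8751, 7762, 8163 and 9053 under anti-G-CSF. The mean was 8294 ± 721 in sham, 8269 ± 436 after burn and 8432 ± 580 under anti-G-CSF (SD, n = 4), and the 3 ranges overlapped. The same held for each complex. Complex I summed to 2035 to 2451 CPM in sham, 2150 to 2344 in burn and 2093 to 2399 with anti-G-CSF, and complex V to 3201 to 3816, 3231 to 3613 and 3238 to 3870. These CPM are scaled by TMM factors, which were 0.894 to 0.989 in burn, 0.977 to 1.03 in sham and 1.04 to 1.07 with anti-G-CSF. As a plain share of each library's counts the genes did separate: 0.784% to 0.898% in sham, 0.765% to 0.780% in burn and 0.830% to 0.968% with anti-G-CSF, so that burn lay below both other groups without overlap. The part that the neutrophil and other marker levels given above play in this share was not tested. In bulk marrow, fewer cells of a type and less RNA per cell cannot be told apart.

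**Figure D1:**
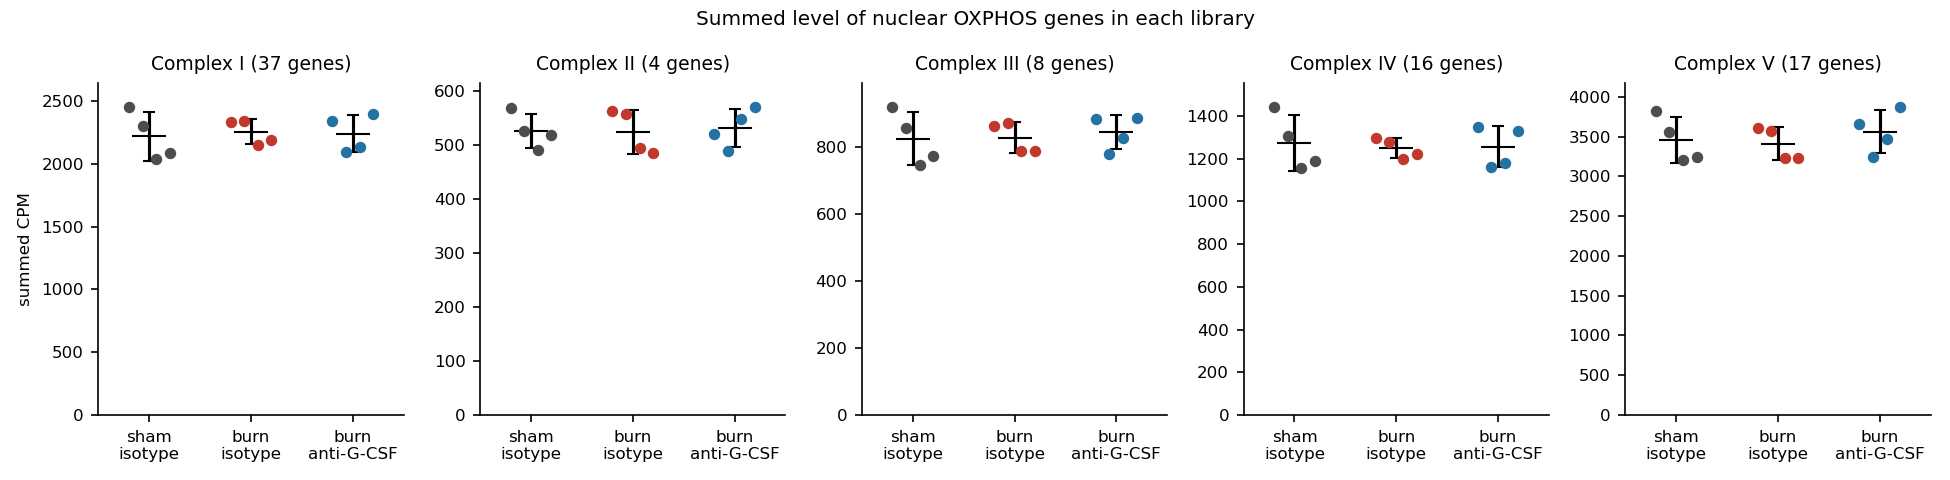
Summed CPM of the nuclear genes of each complex, with 1 point per library, grouped as sham isotype, burn isotype and burn anti-G-CSF; the horizontal line is the mean and the bar the SD over 4 libraries. In all 5 panels the 3 groups overlap.

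Gene by gene with TMM scaling, few of the subunits passed the test, a smaller share than that of all genes in each of the 3 comparisons. With edgeR's quasi-likelihood test and Benjamini-Hochberg adjustment over 15283 genes, 3 of 78 (3.85%) passed an adjusted p of 0.05 in burn against sham, beside 21% of all genes tested. Of these 1 was higher, beside 11.1% of all genes, and 2 were lower, beside 9.92%. The 1 higher was Ndufv3. The 2 lower were Atp5s and Atp5sl, which carry the Atp5 name but are not structural subunits, as set out below. The word subunit in these counts covers all 78 genes taken by name. Between anti-G-CSF and isotype in burned mice 9 of 78 (11.5%) passed, beside 34.6% of all genes, with 5 higher (17.7% of all genes) and 4 lower (16.9%). Atp5s and Atp5sl were among the 5 higher. In anti-G-CSF against sham 2 of 78 (2.56%) passed, beside 11%, both of them higher (7.09%) and none lower (3.91%). Without the adjustment, 0.05 was passed by 2 higher and 3 lower, 6 higher and 4 lower, and 5 higher and 2 lower. The share of all genes at that unadjusted threshold is not given here, so these unadjusted counts stand without a comparison. The burn isotype group enters the first comparison and the second with opposite sign, and the sham group the first and the third, so these counts are not independent. The split depended on scaling. With library size alone, 37 of 78 subunits (47.4%) were higher between the burn groups, above the 37.7% of all genes that were higher, and 0 were lower, beside 10.9%. The median of all genes moved to 0.26 there and that of the subunits was 0.19. After burn that scaling gave 0 higher, beside 8.35% of all genes, and 4 lower (5.13%), beside 18.6%. Upper quartile factors gave 14 higher (17.9%, beside 24.7% of all genes) and 1 lower (1.28%, beside 14.3%) between the burn groups. The comparison of anti-G-CSF with sham depended on single libraries even over all genes: the 1681 genes called became 386, 443, 1067 and 548 without replicate 1, 2, 3 or 4, and 349 and 496 without replicate 9 or 12. Without replicate 10 or 11 the number was 1877 or 2271, and without both replicates 9 and 12 it was 35.

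The sizes were small as well as the counts. The median size of log2 fold change was 0.04 for the subunits and 0.22 for all genes after burn, 0.09 and 0.30 for anti-G-CSF against isotype, and 0.06 and 0.16 for anti-G-CSF against sham. The signed medians were -0.00, 0.01 and 0.02, beside -0.00, 0.08 and -0.00 for all genes. The median SE was smaller too, at 0.09 for the subunits and 0.13 for all genes. The 95% interval lay wholly within a 1.5-fold change for 72, 73 and 74 of the 78 subunits in the 3 comparisons, and for 50.0%, 44.7% and 59.7% of all genes. The subunits whose interval reached beyond 1.5-fold after burn were Cox6b2, Cox7a1, Cox7c, Cox8b, Atp5s and Atp5sl.

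**Figure D2:**
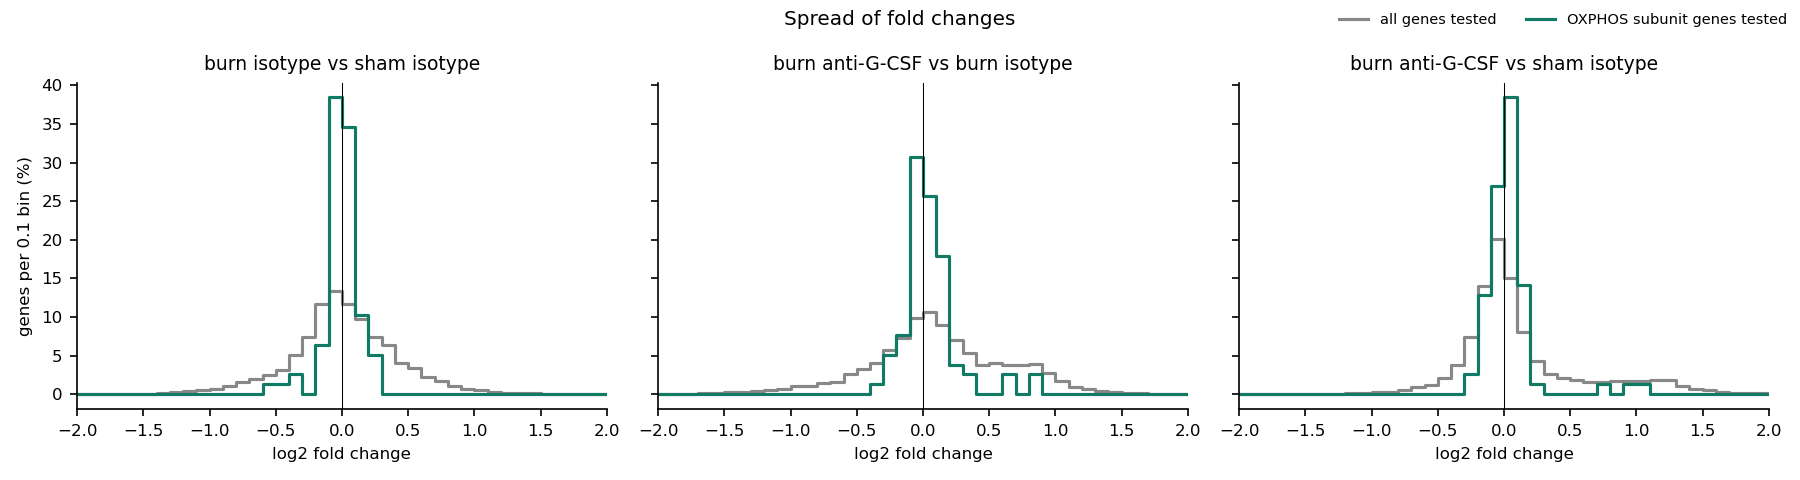
Share of genes in each bin of log2 fold change (x axis, bins of 0.1; y axis, percent of genes) for the 78 subunit genes tested (green) and all 15283 genes tested (grey), in the 3 comparisons. The subunits are gathered near 0, while all genes spread more widely.

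**Figure D3:**
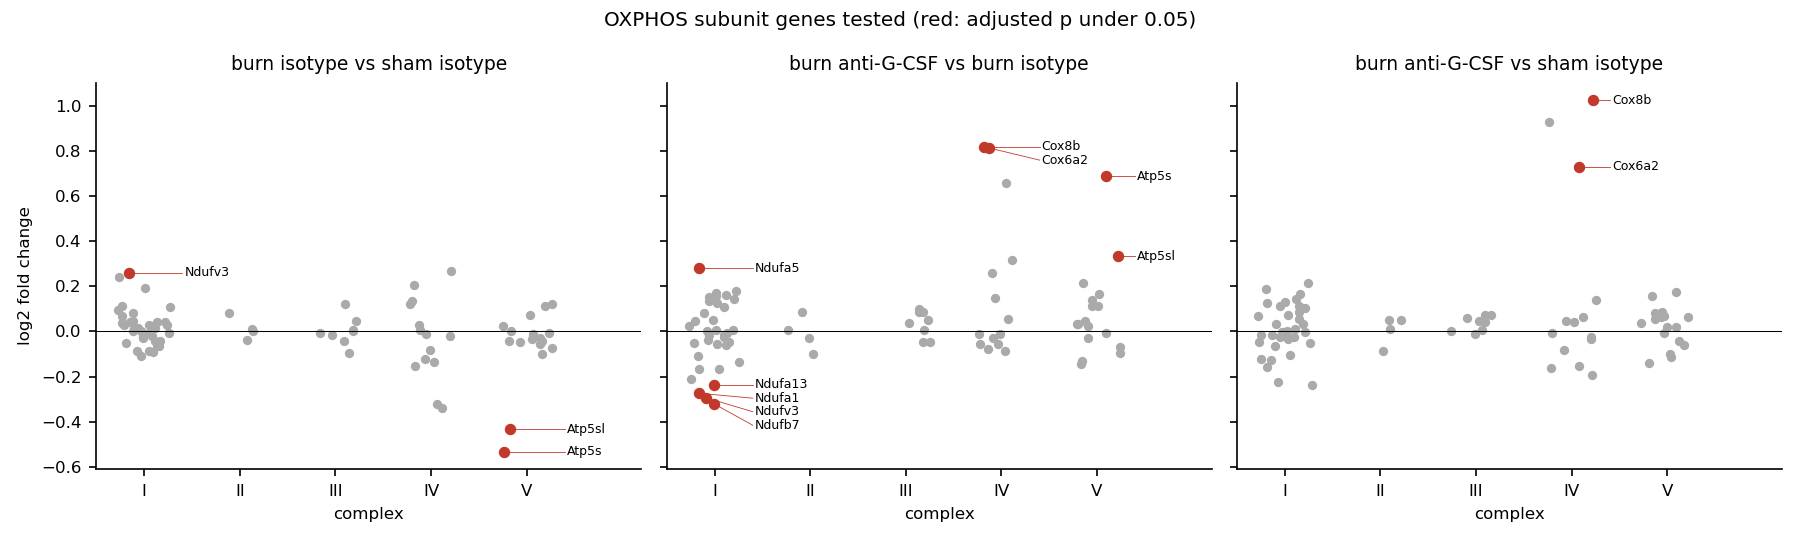
Log2 fold change (y axis) of each subunit gene tested, by complex (x axis), in the 3 comparisons; red points with names passed an adjusted p of 0.05 and grey points did not. With TMM scaling complexes II and III have no red point, and the highest red points are Cox8b and Cox6a2 of complex IV.

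Complex I takes electrons from NADH. After burn 1 of its 35 genes tested rose (2.86%, beside 11.1% of all genes) and none fell (beside 9.92%). Log2 fold changes ran from -0.11 to 0.26. The gene that rose was Ndufv3 (chr17:31520115-31531325, plus strand, mm10), an accessory subunit of the NADH-oxidising module. It was at 51.1, 47.0, 43.0 and 47.4 CPM in sham, 59.4, 62.9, 51.2 and 52.4 in burn and 47.4, 42.7, 42.5 and 51.4 with anti-G-CSF. The lowest burn library lay just above the highest sham library, and 1 library with anti-G-CSF lay within the burn range. The log2 fold change was 0.26 ± 0.09 (SE; edgeR adjusted p = 0.045) after burn and -0.29 ± 0.09 (edgeR adjusted p = 0.0167) with anti-G-CSF against isotype. The first call was lost when any 1 of replicates 2 to 6 was left out, at edgeR adjusted p up to 0.177 over the alternatives, and the second without replicate 5, 6, 10 or 11. Ndufs4, an accessory subunit needed for the assembly of the same arm, was at 49.8 to 61.6 CPM in sham and 57.7 to 70.3 in burn, and its edgeR adjusted p of 0.0558 missed the threshold. Ndufa8 was at 50.3 to 58.3 CPM in sham and 53.5 to 69.5 in burn (edgeR adjusted p = 0.216). Ndufa4, placed here by its name but known as a subunit of complex IV, was at 105 to 126 CPM in sham, 107 to 114 in burn and 113 to 149 with anti-G-CSF and did not pass.

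With anti-G-CSF against isotype, 1 of 35 complex I genes rose (2.86%, beside 17.7% of all genes) and 4 fell (11.4%, beside 16.9%). Ndufa5 (chr6:24518664-24527685, minus strand), an accessory subunit of the arm that reaches into the matrix, was at 33.9, 32.3, 31.9 and 30.5 CPM in sham, 33.8, 28.6, 31.5 and 29.1 in burn and 37.5, 35.7, 34.6 and 41.5 with anti-G-CSF. All 4 libraries with anti-G-CSF lay above all others. Its log2 fold change between the burn groups was 0.28 ± 0.09 (edgeR adjusted p = 0.0187), and against sham it was 0.21 (edgeR adjusted p = 0.118). Ndufb7 (chr8:83566758-83571623, plus strand), an accessory subunit of the membrane arm, was at 83.6, 82.3, 71.0 and 75.0 CPM in burn and 68.8, 62.6, 58.7 and 59.6 with anti-G-CSF. These groups did not overlap, while the sham libraries at 85.4, 78.1, 58.9 and 69.4 spanned both. Its log2 fold change was -0.32 ± 0.10 (edgeR adjusted p = 0.0188). Ndufa1 and Ndufa13, both of the membrane arm, completed the 4 with Ndufv3 and were named after their values were seen. Ndufa1 was at 48.7 to 56.5 CPM in burn and 39.6 to 48.8 with anti-G-CSF, a log2 fold change of -0.27 (edgeR adjusted p = 0.0238). Ndufa13 was at 76.3 to 84.7 and 62.6 to 73.1, a log2 fold change of -0.24 (edgeR adjusted p = 0.0356). Each of the calls on Ndufa5 and Ndufb7 was lost when 1 of 3 libraries was left out, replicate 6, 8 or 12 for Ndufa5 and replicate 5, 11 or 12 for Ndufb7. Those on Ndufa1 and Ndufa13 were lost without replicate 5, 6, 9, 10 or 11. With upper quartile factors or with library size alone, Ndufa1, Ndufa13 and Ndufb7 were not called, while Ndufa5 was. Ndufv3 was still called lower with upper quartile factors and not with library size alone.

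**Figure D4:**
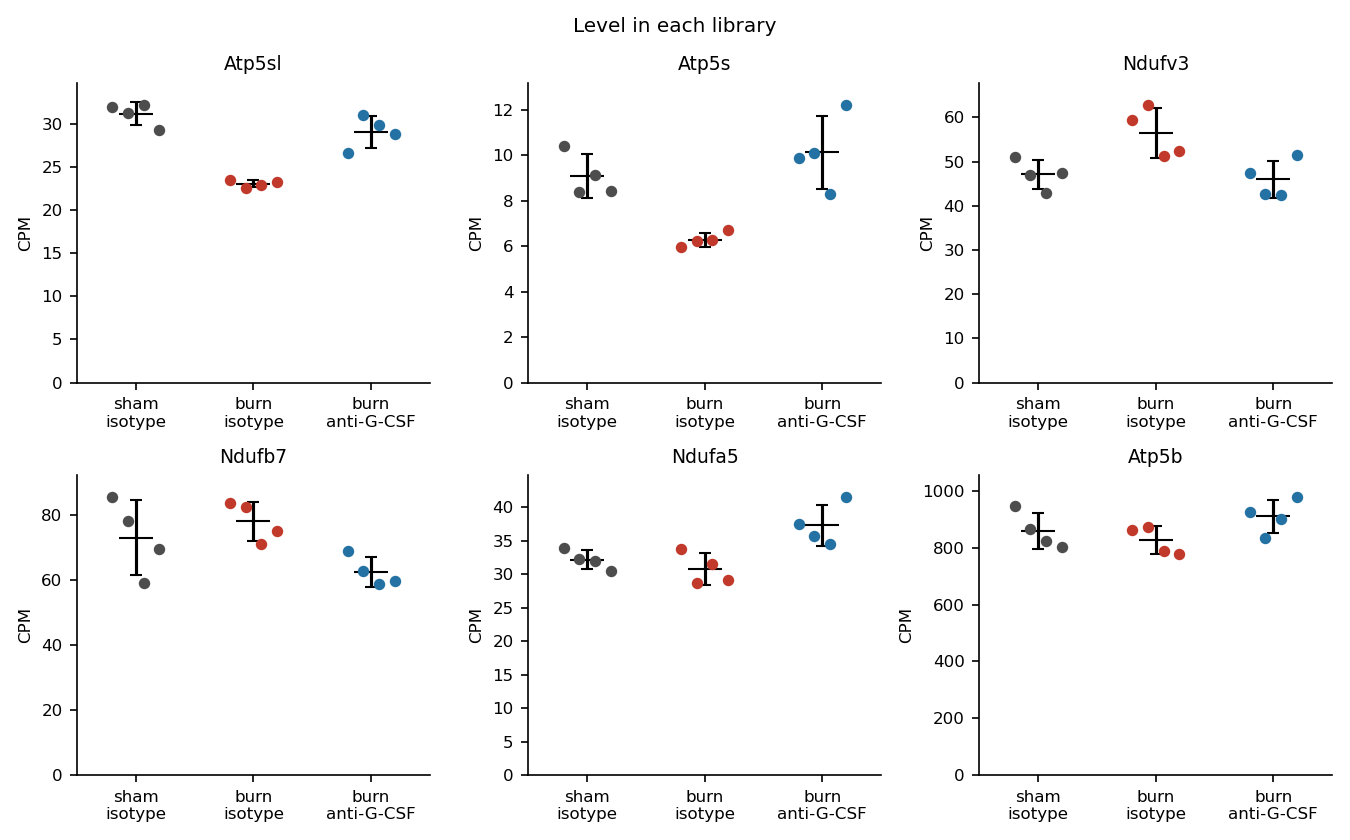
CPM (y axis, from 0) of 6 subunit genes in each library, grouped as sham isotype, burn isotype and burn anti-G-CSF, with the mean and SD over 4 libraries; the genes were picked after their values were seen. Atp5sl and Atp5s are lowest in the 4 burn isotype libraries, and Atp5b, shown as an abundant subunit that did not pass, overlaps throughout.

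With TMM scaling, complexes II and III had no gene past the threshold in any comparison. With library size alone 8 of their 12 genes were higher between the burn groups, beside 37.7% of all genes. Among the 8 were Sdha, Sdhc, Uqcrfs1 and Uqcrh. Complex II oxidises succinate and is shared with the citric acid cycle. Its catalytic subunit Sdha was at 244 to 272 CPM in sham, 233 to 268 in burn and 246 to 287 with anti-G-CSF, and the 95% interval of its log2 fold change was -0.20 to 0.12 after burn and -0.07 to 0.24 between the burn groups. Sdhb, the iron-sulfur subunit, had intervals of -0.10 to 0.26 and -0.21 to 0.15. For the membrane anchors they were -0.17 to 0.18 and -0.17 to 0.18 (Sdhc) and -0.16 to 0.19 and -0.27 to 0.08 (Sdhd). In complex III, which hands electrons to cytochrome c, the log2 fold changes of the 8 genes ran from -0.10 to 0.12 after burn and from -0.05 to 0.10 between the burn groups. The core subunit Uqcrc1 had the interval -0.04 to 0.28 after burn, the Rieske iron-sulfur protein Uqcrfs1 -0.19 to 0.16, and the hinge protein Uqcrh -0.31 to 0.12. A change of 1.5-fold, 0.58 on the log2 scale, lay outside each of these intervals, which hold for TMM scaling.

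Complex IV, cytochrome c oxidase, has subunits that come in a widespread form and a form typical of heart and skeletal muscle. No complex IV gene passed the test after burn with TMM scaling, while Cox6a1 and Cox6b2 were called lower with library size alone. Between the burn groups 2 of 14 rose (14.3%, beside 17.7% of all genes), and both were muscle-type forms. Cox6a2 (chr7:128205435-128206366, minus strand), the muscle partner of Cox6a1, was at 17.5, 16.2, 18.0 and 16.5 CPM in sham, 13.5, 13.4, 22.8 and 14.7 in burn and 32.7, 17.8, 25.8 and 36.9 with anti-G-CSF. Replicates 9 and 12 were highest, and replicate 7 of the burn group lay above replicate 10. The log2 fold change was 0.81 ± 0.20 (edgeR adjusted p = 0.00673) against burn isotype and 0.73 ± 0.20 (edgeR adjusted p = 0.0348) against sham. Cox8b (chr7:140898942-140900446, minus strand), the muscle partner of Cox8a, was at 4.34, 4.42, 5.30 and 3.81 CPM in sham, 4.46, 3.08, 6.47 and 6.56 in burn and 10.2, 5.83, 8.69 and 11.6 with anti-G-CSF. Its log2 fold change was 0.82 ± 0.25 (edgeR adjusted p = 0.0167) and 1.03 ± 0.25 (edgeR adjusted p = 0.0197). Cox7a1 (chr7:30184171-30186030, plus strand), the muscle partner of Cox7a2, was at 6.07, 4.42, 6.92 and 4.01 CPM in sham. It was at 6.19, 2.56, 9.25 and 7.71 in burn and 12.4, 7.29, 6.97 and 14.1 with anti-G-CSF. It did not pass, with log2 fold changes of 0.66 ± 0.33 (edgeR adjusted p = 0.136) against burn isotype and 0.93 ± 0.33 (edgeR adjusted p = 0.0883) against sham. All 4 libraries with anti-G-CSF lay above all 4 sham libraries. Against sham the DESeq2 Wald test and the fit of the compared groups alone called Cox7a1 higher.

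Heart and brain markers moved with these forms. Between the burn groups 12 of 13 heart markers (92.3%) rose and none fell, beside 17.7% and 16.9% of all genes. Against sham 11 of 13 (84.6%) rose, beside 7.09%. Of 18 brain markers 11 (61.1%) rose between the burn groups and 13 (72.2%) rose against sham, and none fell. In library order the heart sum was 385, 409, 480 and 419 CPM in sham, 470, 274, 761 and 586 in burn and 1118, 657, 696 and 1376 with anti-G-CSF. For Cox6a2 the 4 libraries had the same order as for the heart sum within both burn groups, and in sham they did not. For Cox7a1 the order was the same in the burn isotype group, and for Cox8b in the anti-G-CSF group, but neither gene matched in the other 2 groups. Within both burn groups the brain sum ordered the libraries as the heart sum did, so these matches are not particular to heart. With a heart score as a covariate the log2 fold change of Cox6a2 was 0.22 (edgeR adjusted p = 0.432) between the burn groups and -0.01 (edgeR adjusted p = 1) against sham. That of Cox8b was 0.14 (edgeR adjusted p = 0.761) and 0.14 (edgeR adjusted p = 1). Calls were lost over all genes too. This fit called 14 of 15283 genes against sham, beside 1681 without the covariate, and 2622 between the burn groups, beside 5285. The score was 4.07 to 4.35 in sham and 4.81 to 5.89 with anti-G-CSF, so score and group cannot be told apart against sham. In burn isotype it was 3.62 to 4.96, and only replicate 7 reached the anti-G-CSF range. Between the burn groups score and group were thus also largely confounded, and the loss of a call there does not separate them. Without replicates 9 and 12 Cox6a2 was at 0.45 (edgeR adjusted p = 0.128) and 0.35 (edgeR adjusted p = 0.535). Cox8b was then at 0.51 (edgeR adjusted p = 0.243) and 0.70 (edgeR adjusted p = 0.354). Both genes were themselves highest in replicates 9 and 12, so leaving these out lowers the log2 fold changes whatever the source of the RNA. That fit was also chosen with earlier results known, and no source can be read from it. Of the skeletal muscle markers 9 of 12 were tested and 2 (22.2%) rose between the burn groups, beside 17.7% of all genes. Against sham 2 (22.2%) rose, beside 7.09%, while 6 of the 9 log2 fold changes were negative. The sum of this list was 29.1 to 33.5 CPM in sham, 22.3 to 37.0 in burn and 37.2 to 50.0 with anti-G-CSF. Myh1, Myh2 and Myh4 were at 0 to 8 counts per library. Where the RNA of the heart and brain markers and of the muscle-type forms came from was not tested. Leaving out single libraries also ended calls: that of Cox8b between the burn groups without replicate 5 or 12, those of both genes against sham without replicate 1, 2, 4, 9 or 12, and that of Cox6a2 against sham without replicate 3.

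**Figure D5:**
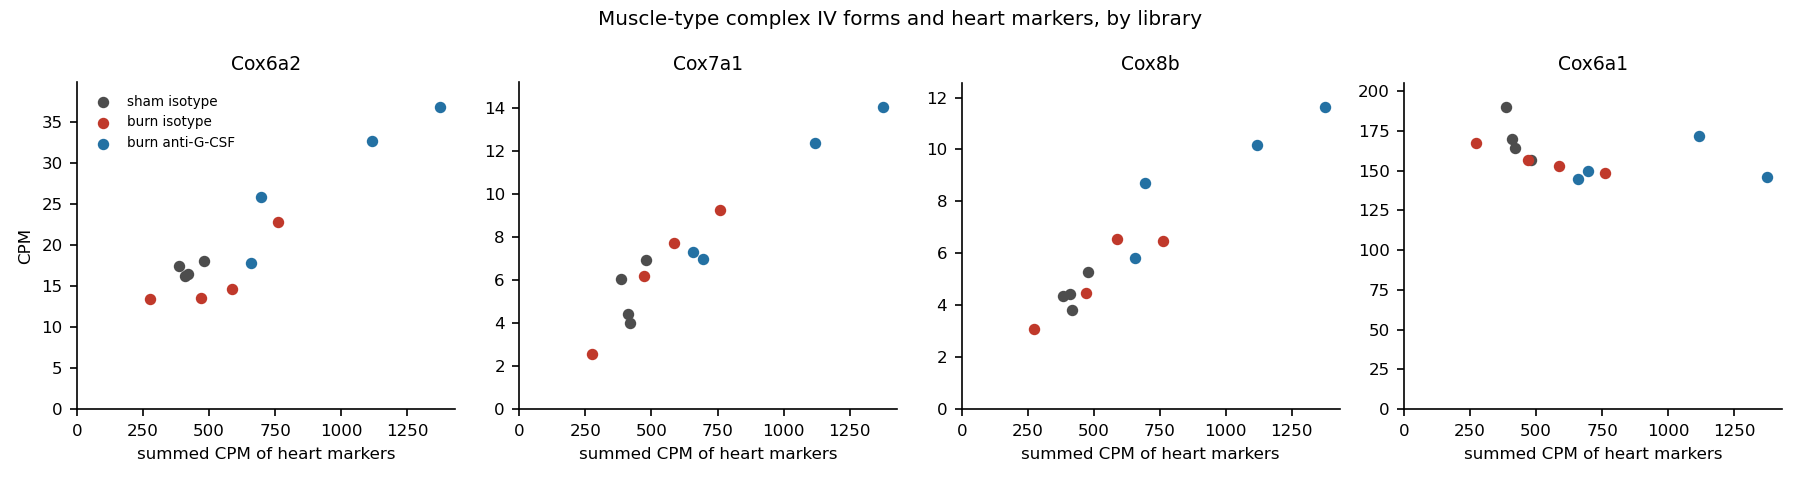
CPM (y axis, from 0) of the muscle-type forms Cox6a2, Cox7a1 and Cox8b and of the widespread form Cox6a1 against the summed CPM of 13 heart markers (x axis) in the 12 libraries, coloured by group. The 3 muscle-type forms are highest in replicates 9 and 12, where the heart sum is 1118 and 1376 CPM, and Cox6a1 is not.

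The widespread partners overlapped between the groups. Cox6a1 was at 157 to 190 CPM in sham, 148 to 168 in burn and 145 to 172 with anti-G-CSF, and Cox8a at 131 to 181, 123 to 151 and 113 to 153. Neither passed in any comparison with TMM scaling. Per kilobase, Cox6a2 made up 7.80% ± 0.712 of the Cox6a pair in sham, 7.98% ± 2.35 in burn and 13.3% ± 3.36 with anti-G-CSF (SD, n = 4). The share of the muscle-type form was 6.85% ± 1.89, 7.89% ± 3.34 and 12.1% ± 2.58 for the Cox7a pair, and 4.55% ± 0.871, 5.76% ± 2.07 and 9.58% ± 2.06 for the Cox8 pair. Cox6b2, the testis-type partner of Cox6b1, was at 19.7, 18.9, 19.6 and 21.5 CPM in sham, 12.0, 17.5, 14.7 and 18.7 in burn and 20.2, 19.5, 14.4 and 21.1 with anti-G-CSF. All 4 burn libraries lay below all 4 sham libraries, yet the log2 fold change of -0.34 ± 0.14 did not pass (edgeR adjusted p = 0.103). Cox7a2l was at 158 to 216, 151 to 198 and 159 to 169 CPM and did not pass.

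Promoter windows of the paired forms are shown to set the widespread against the muscle-type genes. Each runs 5′ to 3′ from 250 bases before to 50 after the gene's start in RefSeq, build GRCm38.p6, and capitals mark exact matches, on either strand, to the motifs of NRF1 (the palindrome GCGCA followed directly by TGCGC), GABPA (CCGGAAG), YY1 (AAGATGGCG), the TATA box (TATAAA) or an E-box (CAGCTG). The windows are chr5:115348909-115349208 (minus strand), chr9:79759804-79760103 (minus), chr19:7217567-7217866 (minus), chr7:30183921-30184220 (plus) and chr7:140900397-140900696 (minus). Cox6a2 had no entry.
Cox6a1: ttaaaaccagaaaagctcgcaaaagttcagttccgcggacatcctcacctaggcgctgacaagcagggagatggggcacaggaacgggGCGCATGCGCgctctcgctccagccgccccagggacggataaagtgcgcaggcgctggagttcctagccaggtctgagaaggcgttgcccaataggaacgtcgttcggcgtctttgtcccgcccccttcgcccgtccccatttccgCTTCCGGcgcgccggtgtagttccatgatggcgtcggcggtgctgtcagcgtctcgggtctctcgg
Cox7a2: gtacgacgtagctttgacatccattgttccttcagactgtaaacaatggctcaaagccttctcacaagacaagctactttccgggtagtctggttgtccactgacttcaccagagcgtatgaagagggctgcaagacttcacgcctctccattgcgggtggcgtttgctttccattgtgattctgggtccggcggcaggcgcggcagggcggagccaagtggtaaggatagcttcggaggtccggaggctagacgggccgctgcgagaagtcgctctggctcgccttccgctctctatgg
Cox8a: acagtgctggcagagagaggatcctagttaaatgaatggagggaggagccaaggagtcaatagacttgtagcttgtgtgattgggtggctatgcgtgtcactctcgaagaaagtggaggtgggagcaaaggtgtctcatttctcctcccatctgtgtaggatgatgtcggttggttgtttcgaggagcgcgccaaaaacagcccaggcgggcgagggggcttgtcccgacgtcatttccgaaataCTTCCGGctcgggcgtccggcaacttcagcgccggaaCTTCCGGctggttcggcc
Cox7a1: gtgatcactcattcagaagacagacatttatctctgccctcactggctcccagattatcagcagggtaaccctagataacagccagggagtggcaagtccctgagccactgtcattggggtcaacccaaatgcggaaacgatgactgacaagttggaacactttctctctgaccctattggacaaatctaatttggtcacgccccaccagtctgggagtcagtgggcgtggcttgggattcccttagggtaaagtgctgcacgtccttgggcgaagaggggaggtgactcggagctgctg
Cox8b: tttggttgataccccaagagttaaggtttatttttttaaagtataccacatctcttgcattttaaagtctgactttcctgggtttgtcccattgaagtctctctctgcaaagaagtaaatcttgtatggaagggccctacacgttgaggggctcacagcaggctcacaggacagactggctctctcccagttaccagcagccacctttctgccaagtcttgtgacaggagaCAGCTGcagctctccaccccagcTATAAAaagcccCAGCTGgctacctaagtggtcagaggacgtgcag
Cox6a1 held 1 NRF1 and 1 GABPA match and Cox8a 2 GABPA matches, whereas Cox8b held a TATAAA match and 2 E-box matches. In Cox8b the TATAAA match began 4 bases after the RefSeq start, and the E-box matches began at -19 and 16. Cox7a2 and Cox7a1 held none of the 5. Among the 69 subunit genes with an entry, NRF1 was found in 5 (7.25%), beside 1.07% of all 27025 genes, GABPA in 16 (23.2%, beside 9.93%) and YY1 in 8 (11.6%, beside 1.64%). TATAAA, at any place in the window, was found in 7 (10.1%, beside 15.7%) and the E-box in 6 (8.7%, beside 18.3%). The E-box was added, and these 5 windows were chosen, after a first scan with the other 4 motifs. A match describes the letters only.

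Complex V had 2 of 17 genes past the threshold after burn, both lower (11.8%, beside 9.92% of all genes). The same 2 were higher with anti-G-CSF against isotype (11.8%, beside 17.7%). Atp5sl (chr7:25619414-25625550, plus strand) was at 32.0, 31.3, 32.3 and 29.3 CPM in sham, 23.5, 22.6, 22.9 and 23.4 in burn and 26.7, 31.0, 29.9 and 28.9 with anti-G-CSF. All 4 burn libraries lay below the other 8. The log2 fold change was -0.43 ± 0.08 (edgeR adjusted p = 8.76e-04) after burn and 0.33 ± 0.08 (edgeR adjusted p = 0.00435) with anti-G-CSF against isotype. Atp5s (chr12:69724962-69744658, plus strand) was at 10.4, 8.38, 9.13 and 8.41 CPM in sham, 5.97, 6.21, 6.25 and 6.69 in burn and 9.89, 10.1, 8.30 and 12.2 with anti-G-CSF, and again all 4 burn libraries were lowest. Its log2 fold change was -0.53 ± 0.16 (edgeR adjusted p = 0.0194) and 0.69 ± 0.15 (edgeR adjusted p = 0.00225). Against sham, the group with anti-G-CSF had log2 fold changes with 95% intervals of -0.27 to 0.07 for Atp5sl and -0.17 to 0.48 for Atp5s. The call on Atp5s after burn was lost without replicate 1 or 5. With the heart score as a covariate, Atp5sl was the 1 gene of the 78 still called between the burn groups, beside 17.2% of all genes. Without replicates 9 and 12 the calls were Atp5s and Atp5sl (higher, beside 8.21%) and Ndufa1 and Ndufv3 (lower, beside 11.1%). Atp5s and Atp5sl share the Atp5 prefix but are not structural subunits of ATP synthase. RefSeq names them Dmac2l (Atp5s, coupling factor B) and Dmac2 (Atp5sl, a factor tied to complex I assembly in human cells).

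The structural subunits of ATP synthase did not pass with TMM scaling. Atp5b was at 802 to 948 CPM in sham, 779 to 875 in burn and 836 to 979 with anti-G-CSF, with intervals of -0.23 to 0.12 after burn and -0.03 to 0.31 between the burn groups. Atp5g1, which encodes the c subunit of the rotor ring as Atp5g2 and Atp5g3 do, was at 48.3 to 68.5, 54.3 to 58.3 and 54.1 to 79.0 CPM. Atp5j, coupling factor 6, was at 92.5 to 123, 108 to 128 and 102 to 113 CPM.

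Other genes of the pathway were counted from lists of known function, and those named here were named after their values were seen. Of 43 assembly factors tested 1 rose and 1 fell after burn, and 3 rose and 2 fell with anti-G-CSF against isotype. Ndufaf7, which modifies a complex I subunit, was 0.40 (edgeR adjusted p = 0.00322) and then -0.34 (edgeR adjusted p = 0.00683) on the log2 scale, and Cox11, which delivers copper to complex IV, -0.42 (edgeR adjusted p = 0.0147) and 0.44 (edgeR adjusted p = 0.00684). Of 16 citric acid cycle genes none passed after burn and 1 rose with anti-G-CSF. Of 78 mitochondrial ribosome genes 1 rose and 2 fell, then 5 rose and 1 fell. In each of these 3 lists the share called was below that of all genes, in each direction and in both comparisons with TMM scaling. Of 16 genes of mitochondrial biogenesis and transcription 3 (18.8%) fell and none rose after burn, beside 9.92% and 11.1% of all genes tested. With anti-G-CSF 5 (31.2%) rose and 2 (12.5%) fell, beside 17.7% and 16.9%. The 3 that fell were Tfam, which packages mitochondrial DNA (-0.33, edgeR adjusted p = 0.00583), the mitochondrial RNA polymerase Polrmt (-0.34, edgeR adjusted p = 0.0315) and Lrpprc, which stabilises mitochondrial messenger RNA (-0.25, edgeR adjusted p = 0.0233). All 3 were among the 5 that rose, at 0.34 (edgeR adjusted p = 0.00362), 0.29 (edgeR adjusted p = 0.044) and 0.40 (edgeR adjusted p = 4.68e-04). The others that rose were Tfb2m, a mitochondrial transcription factor, at 0.28 (edgeR adjusted p = 0.0438), and the coactivator Ppargc1a at 1.05 (edgeR adjusted p = 0.00595). Ppargc1a was at 3.15, 3.05, 2.80 and 2.32 CPM in sham, 2.64, 2.15, 4.73 and 3.55 in burn and 7.39, 5.06, 5.12 and 9.62 with anti-G-CSF. It was highest in replicates 9 and 12, as the heart and brain sums were. The part of the heart and brain marker RNA in its level was not tested. The 2 that fell were Polg, the polymerase that copies mitochondrial DNA (-0.30, edgeR adjusted p = 0.00717), and the nuclear receptor Esrra (-0.37, edgeR adjusted p = 0.00622).

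Of 8 further proteins of the chain tested, 1 fell after burn (12.5%, beside 9.92% of all genes). With anti-G-CSF against isotype 2 rose (25%, beside 17.7%). Atpif1, the inhibitor of ATP synthase, was at 189 to 244 CPM in sham, 115 to 183 in burn and 186 to 248 with anti-G-CSF. It fell after burn (-0.52, edgeR adjusted p = 0.00674) and rose with anti-G-CSF (0.50, edgeR adjusted p = 0.00604). Slc25a4, the ADP/ATP carrier of heart and muscle, rose with anti-G-CSF (0.54, edgeR adjusted p = 0.0256). The part of the heart and brain marker RNA in its level was not tested. Cox4i1, the complex IV subunit whose name the symbol rule leaves out, was at 259 to 312, 299 to 321 and 273 to 301 CPM and did not pass. Cyc1 and Cycs, cytochromes c1 and c, did not pass, with intervals after burn of -0.27 to 0.04 and -0.04 to 0.35.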

How the data were processed

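The 12 whole bone marrow libraries were read from a single table. Per the labels' protocols, the libraries were strand-specific and made from poly(A) RNA. The authors deposited raw whole-number counts for each gene. The submitters' processing notes name the aligner TopHat2 and the build mm10. Which counter, strand setting and annotation were used is not given in the sources used here. The labels do not say that each library is a separate mouse, so the spread behind each p-value is that of 12 libraries and may be technical. Within groups, chi-square per degree of freedom over genes was 6.02 to 33.6 in 18 pairs of libraries, and no pair looked like a repeat deposit.

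Genes were filtered with filterByExpr by group and scaled with TMM factors, and edgeR 4.0.16 in R 4.3.3 fitted a robust quasi-likelihood model to all 12 libraries with 1 mean per group (9 residual degrees of freedom). The 3 comparisons were tested 2-sided with Benjamini-Hochberg adjustment over 15283 genes at 0.05. The SE was taken from the log2 fold change and the square root of F, and the 95% interval uses the moderated degrees of freedom. CPM are counts over the scaled library size. The method was tested on simulated data.

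Levels per kilobase use the median length of protein-coding transcripts in GENCODE M21. This replaced the summed exon length after a first look showed that minor transcripts lengthened some genes. Promoter windows came from RefSeq and matched 69 of 82 genes. Starts in the deposited table were raised by 1, since 46 of 53 genes with the same end in RefSeq then had the same start.

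The text names, in complexes I, III, IV and V, the 3 genes with the smallest p after burn and between the burn groups, all 4 Sdh genes, paired forms, genes that moved against their complex, and 5 proteins the symbol rule leaves out. It names some of these and gives others as ranges. The genes, lists and tests were chosen with earlier results of these data known. So were the heart score (mean log2 CPM of 13 heart markers, with a prior count of 2) and the fit without replicates 9 and 12. Further settings tried were scaling by upper quartile, by library size or by DESeq2 size factors, leaving out the 20 most abundant genes, no low-count filter, a filter at CPM above 1 in 4 or more libraries, the Wald test of DESeq2 1.42.0, a fit of the compared groups alone, leaving out each library, and an adjusted p of 0.01. Figures used matplotlib 3.10.9.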

Additional observations from a re-analysis of the deposited data

Results flagged for a closer look

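In 5 of 120 groups of 4 libraries, over the named genes and the summed levels, 1 library stood apart from the other 3 by a gap that, over the group's whole range, passed Dixon's 95% critical value. Chance alone gives about 1 such group in 20. Cox8a was at 181 CPM in replicate 1 of sham, where the others were at 131 to 137, and at 151 CPM in replicate 6 of burn, where the others were at 123 to 126. Cox6a2 was at 22.8 CPM in replicate 7 of burn, the burn library with the highest heart and brain sums, where the others were at 13.4 to 14.7. Ndufa8 was at 65.5 CPM and Atp5j at 113 CPM in replicate 12 of burn with anti-G-CSF, where the others were at 49.0 to 50.4 and 102 to 104.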

How the results depend on the processing

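No paired analysis was possible because the groups share no replicate number. Scaling moved the counts of subunits most. With library size alone, the median of all genes moved from 0.08 to 0.26 between the burn groups, and 37 subunits (47.4%, beside 37.7% of all genes) were higher and 0 lower there (median of the subunits 0.19). With that scaling 0 were higher and 4 lower after burn (median -0.10), beside 8.35% and 18.6% of all genes. In anti-G-CSF against sham 4 were higher (5.13%, beside 8.47%). Upper quartile factors gave 14 higher (17.9%, beside 24.7% of all genes) and 1 lower (beside 14.3%) between the burn groups. The heart score as a covariate gave 1 higher and 0 lower between the burn groups, beside 7.74% and 9.42% of all genes. It gave 0 higher against sham (beside 0.0785%) and 2 higher after burn (beside 13.3%). It turned the log2 fold change of Cox6a2 against sham to -0.0147. Without replicates 9 and 12 the counts were 2 higher and 2 lower between the burn groups, beside 8.21% and 11.1% of all genes. Against sham 0 were higher then, beside 0.115%. An adjusted p of 0.01 left 3 higher and 0 lower between the burn groups, beside 7.9% and 12.5% of all genes. It left 0 higher against sham (beside 0.327%), and 0 higher and 1 lower after burn (beside 7.37% and 5.5%). Fitting only the groups compared gave 3 higher between the burn groups, beside 10.7% of all genes. DESeq2 size factors, the DESeq2 Wald test and the CPM filter each gave 2 higher after burn, beside 11.3%, 14% and 12.4% of all genes. No filter and leaving out the 20 most abundant genes gave 0, beside 7.93% and 9.87%. No filter gave 1 higher against sham (beside 4.3%). The Wald test and leaving out the abundant genes each gave 1 lower there (beside 6.72% and 6.63%). Leaving out 1 library at a time gave 0 to 2 higher and 1 to 2 lower after burn. The shares of all genes were 8.22% to 11.4% and 6.94% to 10.8%. Between the burn groups it gave 3 to 6 higher and 0 to 5 lower, beside 10.6% to 19.7% and 13.6% to 17.3%. Against sham it gave 0 to 2 higher and 0 to 1 lower, beside 0.954% to 9.14% and 1.15% to 5.54%. Both calls on Atp5sl were kept in all 17 and 18 alternatives, whereas each other call on a named subunit was lost in at least 1. In 165 cases a named gene that passed under neither setting changed sign, and these were not counted as reversals. Of the other single-gene results 52 were weaker and 36 stronger. The low-count filter left 4 subunits untested.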
